A study of Mus musculus with 2 samples.

Results

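The genes described here are 37 genes of the cell cycle and of DNA replication, taken as a fixed list of gene symbols. A gene was read by the Affymetrix probe sets that the platform annotation assigns to its symbol alone, and its brightest set, by mean log2 signal after signals under the floor described below were raised to it, stands for it. This gave values for 36 of the 37 genes, out of 18193 genes that the arrays name in this way. Ccnb1, which encodes cyclin B1, was assigned no set of its own. The list holds 21 genes that serve the G1 phase and DNA synthesis (G1-S genes), 13 that serve G2 and mitosis (G2-M genes) and 3 brakes on the cycle. Expression was measured in whole liver of 2 male mice, each 3 months old and fasted overnight, on a mixed background of 129Sv with C57BL6. The control group is 1 animal, whose genotype the labels do not state further, and the other group is 1 animal labelled Tmprss6-/-, which lacks matriptase-2 through gene targeting.

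A resting liver cell sits outside the cycle. D cyclins with Cdk4 inactivate the retinoblastoma protein Rb1, which frees E2F factors to switch on cyclin E and the genes of replication, and the MCM ring is then loaded on DNA and started as a helicase. Genes of mitosis come on later, under control that acts through promoter elements named CHR and CCAAT, and adult hepatocytes are known to divide seldom and often to carry more than the usual set of chromosomes.

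Signals are read against a floor of 17.8, the median of all probe sets over both arrays, which stands in for a detection call. Tmprss6 read 1868 in the control and 88.1 in the Tmprss6-deficient liver, in the direction of the labels, though whether its probes lie in the deleted part is not known here. With 1 array a group there is no replicate error and no p-value, and the number of arrays limits the precision. Differences below are between these 2 animals. As a yardstick, log2 ratios of different probe sets of a gene scatter with an SD of 0.46 for signals under 64, of 0.37 up to 256, of 0.32 up to 1024 and of 0.18 beyond that. It leaves out the variation between animals. Hepatocyte markers were high on both arrays, with Alb at 29345 in the control and 27850.5 in the Tmprss6-deficient liver, and of 7 such markers only Hnf4a (3147.7 and 4849.5) was past 1.5-fold.

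Most G2-M genes lay near background in both livers, while G1-S genes gave a signal about as often as all named genes. Of the 12 G2-M genes on the arrays, 8 were below the floor on both arrays, 3 were above it on 1 array, and 1, Pttg1, was above it on both. Of the 21 G1-S genes, 6 were below the floor on both arrays (28.6%), 3 were above it on 1 and 12 on both (57.1%). All 3 brakes were above it on both. Over all 18193 named genes, 56.3% had a signal on both arrays by this floor and 32.7% on neither. By probe sets, 16 of the 22 sets of G2-M genes (72.7%) and 26 of the 61 sets of G1-S genes (42.6%) were below the floor on both arrays. The floor is the median of all sets, and the share of all sets below it on both arrays was not counted. G1-S genes had more sets for a gene than G2-M genes, so more from which a brightest set could be taken. The counts depend on the floor. At the 30th percentile of signals, 2 of the 12 G2-M and 1 of the 21 G1-S genes were below it on both arrays, and at the 70th, 11 and 10 were. Of all 18193 named genes, 15764 were above it on at least 1 array at the 30th percentile and 8283 at the 70th. The counts were not compared by a test.

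The G2-M genes below the floor include the usual markers of dividing cells. Mki67, which encodes the Ki-67 antigen, read 10.9 in the control and 9.4 in the Tmprss6-deficient liver. Top2a, the topoisomerase that untangles sister chromosomes, read 13.1 and 12.7. The mitotic kinase gene Cdk1 read 13.4 and 8.9, and its partner Ccna2 (cyclin A2) read 16.2 and 11.6. None of these pairs reached the floor on either array, so no ratio was taken. Plk1, a kinase of mitotic entry and spindle assembly, read 11.7 and 2.6. The spindle pole kinase gene Aurka read 15.8 and 17.4, and Aurkb, its relative at the centromere, read 1.5 and 5.6. Birc5 (survivin), a partner of Aurkb, read 1.2 and 0.9. Over these 8 genes the signals ran from 1.2 to 16.2 in the control, with a median of 12.4, and from 0.9 to 17.4 in the Tmprss6-deficient liver, with a median of 9.15.

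For 3 further G2-M genes 1 array was just above the floor, which gives a bound and no ratio. Ccnb2 (cyclin B2) read 20.4 in the control and 2.3 in the Tmprss6-deficient liver, at least 1.15-fold lower. Bub1, a kinase of the spindle checkpoint, read 6.4 and 20.7, at least 1.16-fold higher. Cdc20, which activates the anaphase-promoting complex, read 12.5 and 18.8, at least 1.06-fold higher. For Bub1 and Cdc20 the other probe sets gave no signal above the floor, and Ccnb2 has 1 set. These bounds are smaller than the probe set spread at this signal.

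**Figure D1:**
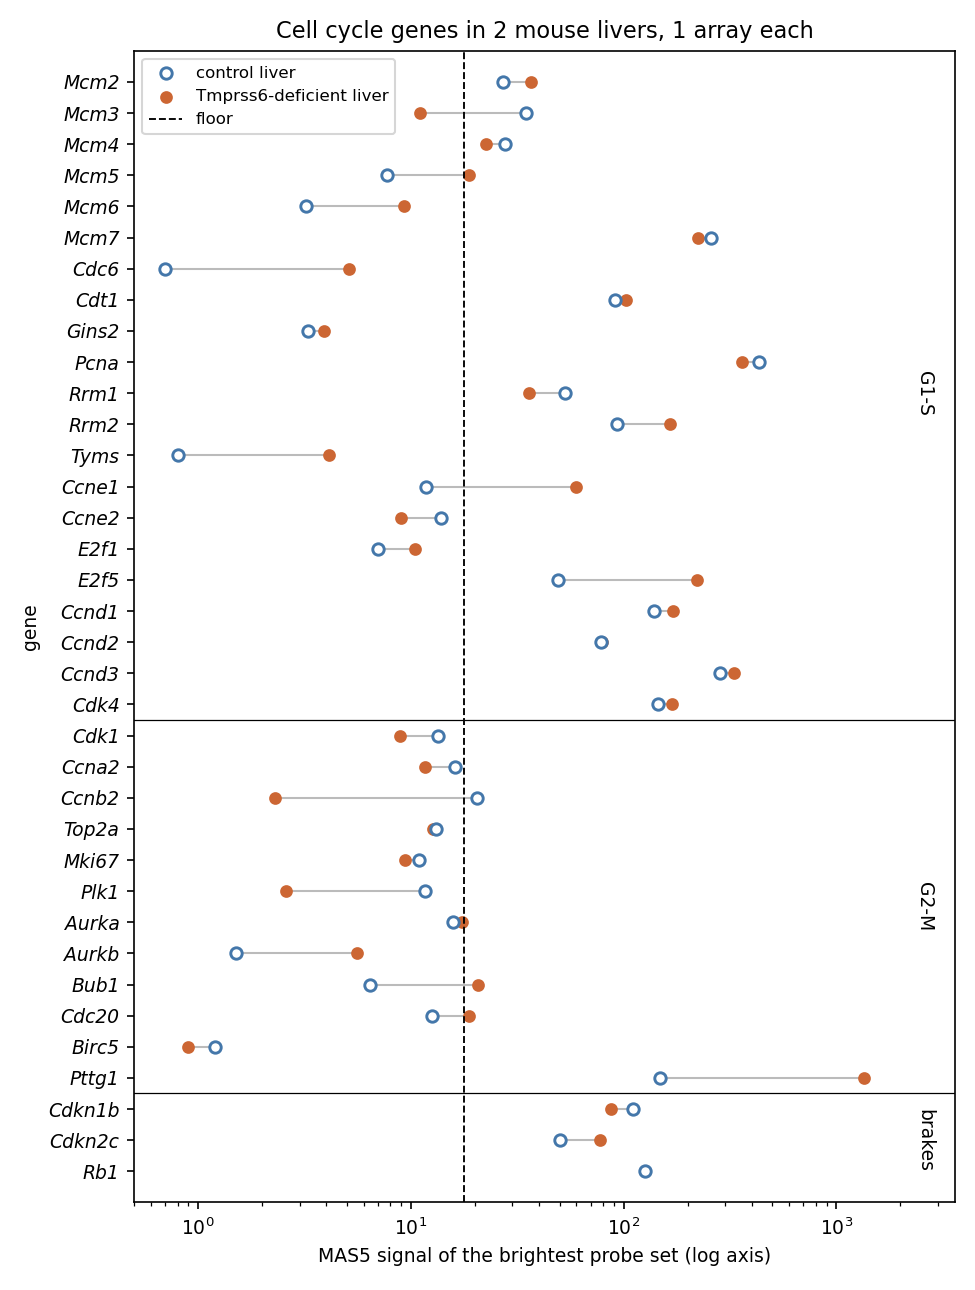
MAS5 signal of the brightest probe set of 36 genes (rows, grouped into G1-S genes, G2-M genes and brakes) in the control liver (open circles) and the Tmprss6-deficient liver (filled circles), 1 array each, on a log axis, with the floor of 17.8 as a dashed line. Apart from Pttg1 each G2-M gene has at least 1 circle left of the floor, and the circles of Ccnd2 and of Rb1 lie on top of each other.

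**Figure D2:**
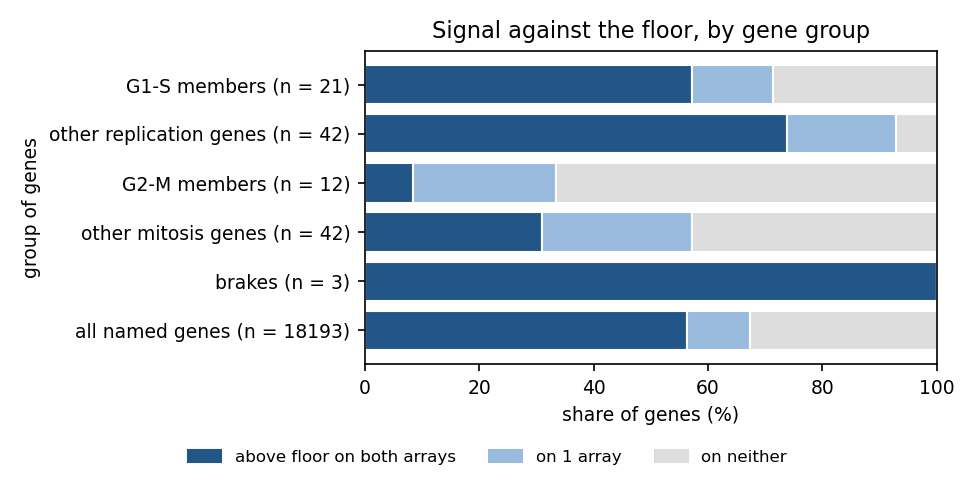
Share of genes in percent (x axis) whose brightest probe set was above the floor on both arrays, on 1 or on neither, for the members, for 42 other replication genes and 42 other mitosis genes on the arrays, and for all 18193 named genes. G2-M members were below the floor on both arrays for 8 of 12 genes, G1-S members for 6 of 21.

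Pttg1 was the member that differed most between the livers. It encodes securin, the inhibitor that holds separase, the protease of sister chromatid separation, until anaphase. On its brightest probe set, 1438390_s_at, Pttg1 read 147.5 in the control and 1347 in the Tmprss6-deficient liver, 9.13-fold higher, a log2 ratio of 3.19 where probe sets scatter by 0.32. On 1424105_a_at it read 33.2 and 321, with a log2 ratio of 3.27. On the dim set 1419620_at it read 2.2 and 24.8, at least 1.39-fold higher. All 3 sets thus pointed the same way, and the 2 brighter sets differed from each other by less than the probe set spread. Among the 10243 genes with a signal on both arrays, only 2 had a higher ratio. Separase itself, encoded by Espl1, read 5.1 and 9.4, below the floor on both arrays.

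The neighbours of Pttg1 on chromosome 11 that were above the floor on both arrays did not share its difference. Of the 12 protein-coding genes on each side of it, by order in the RefSeq annotation of GRCm38.p6, 13 were above the floor on both arrays, with a median log2 ratio of 0.19 and a range from -1.15 to 0.62. Of these 13, 1 was higher by 1.5-fold or more (Pwwp2a, 61.8 and 94.8) and 1 lower (Wwc1, 371.9 and 167.6). Slu7, the adjacent gene on one side, read 178.4 and 185.3. Atp10b, adjacent on the other side, read 27.6 and 1.5. These neighbours were looked at after the value of Pttg1 was seen, and the same was done for E2f5 on chromosome 3, where 9 neighbours had a median of -0.078 and a range from -1.41 to 0.46. Around Rrm2 on chromosome 12 the 12 neighbours read on both arrays ran from -1.58 to 1.48 (median 0.22), with 3 higher and 2 lower by 1.5-fold, so Rrm2 lay inside the range of its neighbours. Around Ccne1 on chromosome 7 the median was -0.21 over 7 genes. The labels give both animals the same mixed background, and the part of strain differences at these genes was not tested.

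**Figure D3:**
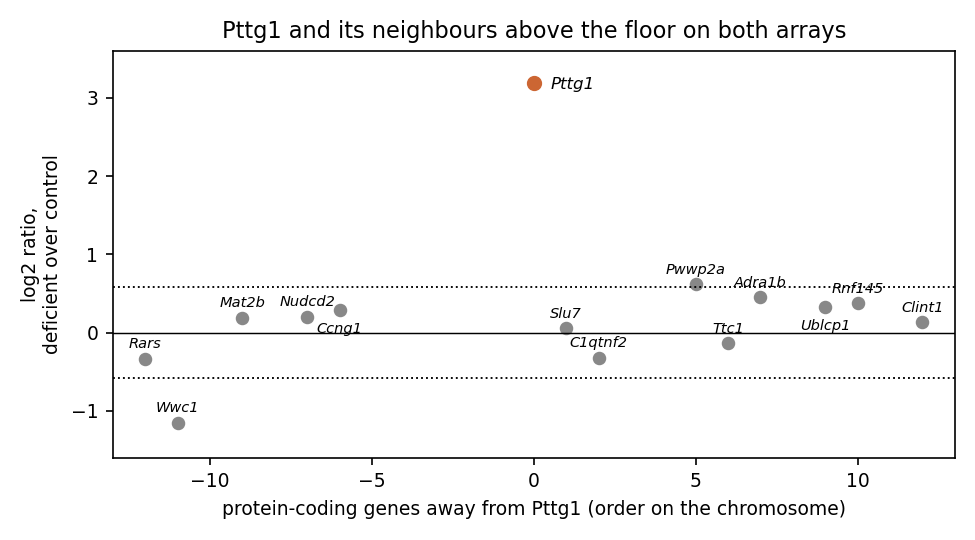
Log2 ratio of Tmprss6-deficient over control signal (y axis) of Pttg1 (at 0) and of the 13 neighbouring genes above the floor on both arrays, placed by how many protein-coding genes away they lie (x axis). Dotted lines mark 1.5-fold, and the neighbours lie between -1.15 and 0.62 while Pttg1 lies at 3.19.

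Promoter letters known from E2F-driven and from mitotic genes were counted in the members, and 4 promoters are printed for the genes on which the comparison turns, as RefSeq gives them in GRCm38.p6. Windows of 300 bases, 250 before and 50 after the start of a gene, were held for 28 of the 37 genes, leaving out Mcm4, Gins2, Ccne2, E2f5, Ccnd1, Ccnd2, Ccna2, Aurkb and Rb1. Letters searched on both strands were TTTCCCGC, TTTCGCGC, TTTGCCGC or TTTGGCGC for E2F, TTTGAA or TTTAAA for CHR, CCAAT for the CCAAT box and CACGTG for the E-box. Matches of an E2F word on each strand may overlap, and TTTAAA and CACGTG read the same on both strands. Below are the 250 bases before the start, 5′ to 3′ along the gene, with matches in capitals. Mcm7 (chr5:138171884-138172133, minus strand) stands for G1-S genes with E2F letters, Rrm2 (chr12:24708004-24708253, plus strand) is a G1-S gene higher on all 3 of its sets, Cdc20 (chr4:118437344-118437593, minus strand) shows the layout of G2-M genes, and Pttg1 (chr11:43425982-43426231, minus strand) is the G2-M gene above the floor on both arrays.
Mcm7: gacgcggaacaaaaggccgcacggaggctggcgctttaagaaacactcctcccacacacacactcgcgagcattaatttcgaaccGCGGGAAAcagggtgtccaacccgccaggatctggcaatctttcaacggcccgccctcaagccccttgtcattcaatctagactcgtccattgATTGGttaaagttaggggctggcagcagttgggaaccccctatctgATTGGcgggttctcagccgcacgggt
Rrm2: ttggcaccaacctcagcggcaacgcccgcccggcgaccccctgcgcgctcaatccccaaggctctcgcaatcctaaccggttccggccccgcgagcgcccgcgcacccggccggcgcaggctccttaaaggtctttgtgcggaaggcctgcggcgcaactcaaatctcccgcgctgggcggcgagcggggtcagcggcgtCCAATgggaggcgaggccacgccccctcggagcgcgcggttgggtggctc
Cdc20: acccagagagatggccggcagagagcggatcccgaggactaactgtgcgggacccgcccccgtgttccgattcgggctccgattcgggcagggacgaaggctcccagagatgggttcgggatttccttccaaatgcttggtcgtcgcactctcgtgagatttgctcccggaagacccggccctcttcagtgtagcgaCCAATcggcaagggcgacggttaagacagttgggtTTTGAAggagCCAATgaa
Pttg1: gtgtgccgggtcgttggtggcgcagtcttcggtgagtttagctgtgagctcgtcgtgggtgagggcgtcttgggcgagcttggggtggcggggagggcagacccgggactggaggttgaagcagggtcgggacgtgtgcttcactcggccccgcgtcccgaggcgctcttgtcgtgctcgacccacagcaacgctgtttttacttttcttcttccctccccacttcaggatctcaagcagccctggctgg
In Mcm7 the capitals are an E2F word on the opposite strand beginning 165 bases before the start and CCAAT on the opposite strand at 72 and 26 bases. In Cdc20 they are CCAAT at 53 and 8 bases before the start and CHR letters at 18 bases. Rrm2 has CCAAT at 50 bases, and Pttg1 has no capitals. Matches in the 50 bases after the start are counted but not printed.

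E2F letters were found in 6 of 15 G1-S genes with a window (Mcm3, Mcm5, Mcm6, Mcm7, Cdc6 and Cdt1) and in 1 of 11 G2-M genes (Cdk1), against 2.6% of all 27025 genes with a window. CHR letters were found in 9 of 11 G2-M genes and in 4 of 15 G1-S genes, against 30.6% of all genes. The CCAAT box was in 9 of 11 G2-M and 9 of 15 G1-S genes, against 41.1%. The E-box was in 0 of 11 G2-M and 2 of 15 G1-S genes, against 8.09%, and Cdk4 was one of those. Pttg1 and E2f1 were the members whose window held none of the 4 kinds, as did 37.1% of all genes. A match in letters is not a bound site, and a window without one says nothing of the factor. Of the 10 members with a window that were below the floor on both arrays, 6 held CHR letters, and of the 11 above it on both arrays, 3 did. All 6 are G2-M genes and none of the 3 is, so this split cannot be told apart from that of the classes. The CCAAT box was in 6 of the 10 and 8 of the 11, E2F letters in 3 and 2, and the E-box in 1 and 2.

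Among the members of the replication machinery, the MCM genes differed little or lay near the floor. Mcm7 gave the clearest reading, with 257.3 in the control and 223.3 in the Tmprss6-deficient liver on its brightest set and log2 ratios of -0.20, -0.34, -0.40 and 0.44 on its 4 sets. The first 3 of these sets were lower and the dimmest was higher, all within 1.5-fold. Mcm2 read 27.1 and 36.5 (0.43), and Mcm4 read 27.7 and 22.5 (-0.30) with its other set at 0.36. Mcm3 read 34.8 and 11 on 1 set, at least 1.96-fold lower, while its other 4 sets were below the floor on both arrays. Mcm5 read 7.7 and 18.7, at least 1.05-fold higher, and Mcm6 read 3.2 and 9.3. Over the 6 subunits, 3 were thus measured on both livers and none of those 3 differed by 1.5-fold.

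Of the genes that license and start origins, Cdt1, the loader of the MCM ring, read 90.7 and 102.4, with ratios of 0.18 and -0.026 on its 2 measured sets. Its partner Cdc6 read 0.7 and 5.1, and Gins2, a subunit of the active helicase, read 3.3 and 3.9, both below the floor. Pcna, the sliding clamp of the DNA polymerases, read 434.5 and 360.7 on 1 set, a log2 ratio of -0.27 that is smaller than the probe set spread of 0.32.

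The subunits of ribonucleotide reductase, which makes deoxynucleotides, gave log2 ratios of opposite sign, that of Rrm1 within 1.5-fold. Rrm2, the small subunit made in S phase, read 92.6 in the control and 165.3 in the Tmprss6-deficient liver, 1.79-fold higher. Its other sets read 43.1 and 67.2, and 36.2 and 50.4, so that all 3 sets were higher, by 0.84, 0.64 and 0.48 on the log2 scale. The spread was 0.37 at the brightest set and 0.46 at mean signals under 64, where the other sets lie. Rrm1, the large subunit, read 53.2 and 35.8, with log2 ratios of -0.57 and -0.36 on its 2 measured sets against a spread of 0.46. Both were within 1.5-fold, the brighter of them only just. Tyms, the thymidylate synthase gene, was below the floor on all 4 of its own sets, with 0.8 and 4.1 on the brightest.

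Of the cyclin E and E2F genes, Ccne1 and E2f5 each gave a high ratio on 1 probe set, of a size that their other sets did not share. Ccne1 (cyclin E1) read 11.8 and 59.4 on 1441910_x_at, at least 3.34-fold higher, but 29.2 and 24.4 on 1416492_at, a log2 ratio of -0.26. The first set stands for Ccne1 only because signals were raised to the floor before sets were ranked. Ranked on the signals themselves, the second would, and Ccne1 would not be past 1.5-fold. E2f5, an E2F that mostly represses, read 49.3 and 220.3 on 1447625_at, 4.47-fold higher. Its other sets read 89.5 and 93.4, and 55.2 and 80.7, with log2 ratios of 0.062 and 0.55. The sets of E2f5 pointed the same way, but by sizes that differ by more than the spread of 0.37. Ccne2 read 13.8 and 9.0, and E2f1, the activating E2F, read 7.0 and 10.4, below the floor on both arrays.

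The D cyclins and their kinase were alike in the 2 livers on their brightest sets. Ccnd1, the cyclin that rises when hepatocytes enter the cycle, read 138.5 and 170.3, with log2 ratios of 0.30, -0.24 and 0.84 on its 3 sets. Its probe sets thus gave both directions, and only the dimmest of them was past 1.5-fold. Ccnd2 read 78.1 and 78.9 (0.015), with its other sets above the floor on both arrays from -0.40 to 0.071 and, at least 1.79-fold lower, a set with a control signal only. Ccnd3 read 284.1 and 328.4 (0.21), with -0.14 on another set. Cdk4 read 145.5 and 168.4, with 0.21, 0.25 and 0.036 on its 3 sets.

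Of the brakes, Rb1 read 125.7 in the control and 126.0 in the Tmprss6-deficient liver, a log2 ratio of 0.0034. Cdkn1b (p27), an inhibitor of cyclin E and its kinase, read 110.1 and 87.6 (-0.33). Cdkn2c (p18), an inhibitor of Cdk4, read 50.4 and 77.2 on its 1 set, 1.53-fold higher, a log2 ratio of 0.62 where probe sets scatter by 0.46. It was within 1.5-fold with scaling to the median (0.56), quantile normalization (0.57) and loess (0.56).

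**Figure D4:**
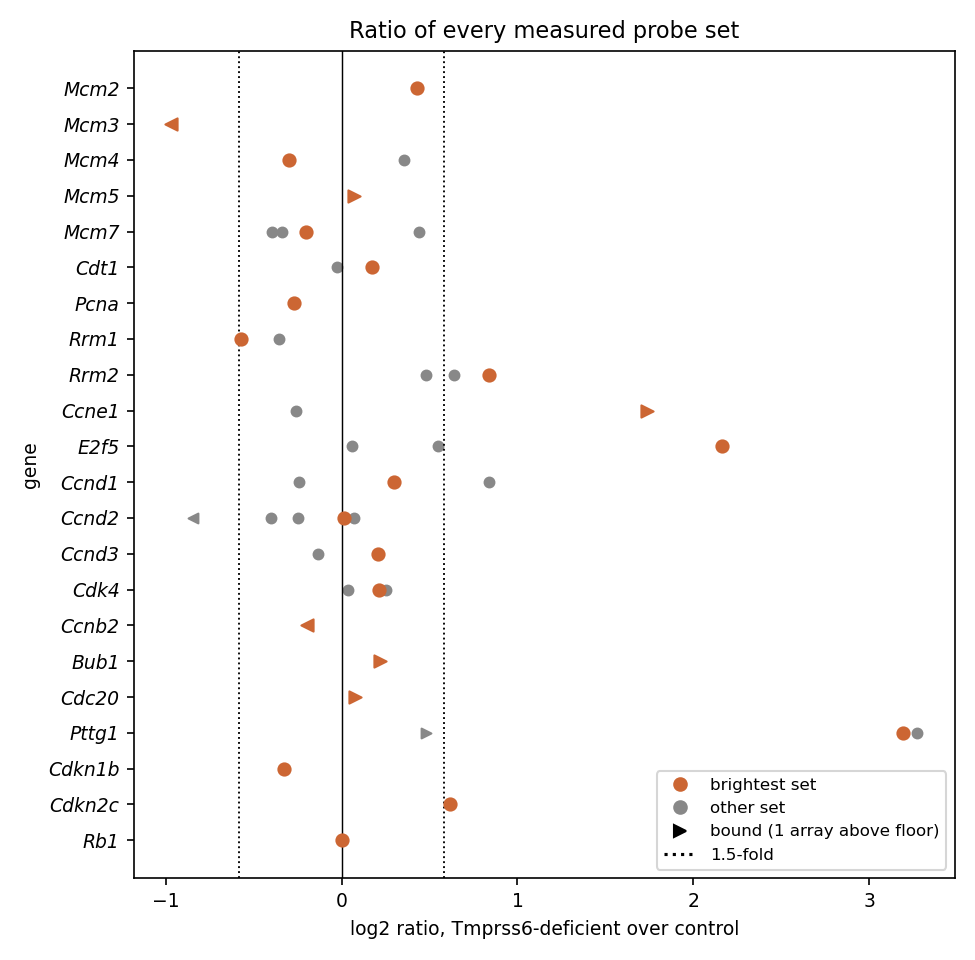
Log2 ratio of Tmprss6-deficient over control signal (x axis) of every probe set above the floor on at least 1 array, for the 22 members with such a set (rows). The brightest set of a gene is orange and other sets grey, triangles are bounds, and dotted lines mark 1.5-fold. The sets of Pttg1 and Rrm2 lie on 1 side of 0, while those of Ccne1, Ccnd1 and Mcm7 lie on both sides.

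Set against all genes, 4 of the 16 members above the floor on both arrays were higher by 1.5-fold or more (Pttg1, E2f5, Rrm2 and Cdkn2c) and 0 were lower, where 7.51% of all genes read on both arrays were higher and 8.42% lower, and 15.9% differed in either direction. With scaling to the median, quantile normalization or loess the split was 3 higher and 1 lower, since Cdkn2c was within 1.5-fold and Rrm1 was lower by more than that. Of all genes read on both arrays, 6.33% to 6.87% were then higher and 9.18% to 10.1% lower. Counting bounds, 5 of 22 measured members were higher, with Ccne1 added, and 1 was lower, Mcm3, against 8.86% and 9.19% of 12247 genes, and 18.1% in either direction. With sets ranked before the floor was set, a choice added after seeing the data, Ccne1 dropped out and 4 of 22 were higher, against 8.74% of 12155 genes. Measured here means above the floor on at least 1 array. A gene that is above it on 1 array only had to differ, so the second pair of counts leans on how Ccne1 and Mcm3 entered. When the second brightest measured set was taken for the 12 members that have one, an alternative added after seeing the data, 4 members were past 1.5-fold in place of 6, and E2f5 and Ccne1 were no longer among them.

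The 2 classes could not be told apart by their medians. Over 15 measured G1-S genes the median log2 ratio was 0.18, and 3 were 1.5-fold or more higher and 1 lower. Over 4 measured G2-M genes it was 0.15, and 1 was higher and 0 lower, and it was 0.079 over the 3 genes left without Pttg1, each of them a bound. The median over all 12247 measured genes was -0.0048. The difference of the class medians was 0.027, and it took either sign among the alternatives tried. Without the D cyclins, Cdk4 and E2f5, which serve G1, the remaining G1-S genes had a median of -0.067 over 10 genes.

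Other genes of the pathway, on lists that hold no member, had more replication genes lower than higher by 1.5-fold. A smaller share of the mitosis genes than of all named genes had a signal on both arrays. Of 39 measured genes of replication and DNA synthesis, 12 were 1.5-fold or more lower and 3 higher, and the median log2 ratio was -0.27, against 9.19% lower and 8.86% higher among all measured genes. Among the 31 above the floor on both arrays, 10 were lower and 1 higher, against 8.42% and 7.51%. Dim genes pass 1.5-fold more often, and of all measured genes with a mean signal under 256, 10.9% were lower and 10.9% higher, 21.8% in all. The count of lower genes was 5 of 39 with the floor as a pseudocount, 8 of 39 with the mean of all measured sets and 2 of 39 at 2-fold, and a floor at the 70th percentile left 17 measured genes, of which 5 were lower. Among all measured genes, 8.18% were lower with the pseudocount, 7.66% with the mean of all sets and 6.27% with the higher floor. At 2-fold, 340 of 12247 genes were lower. The median of the replication list was -0.17 with the mean of all sets, -0.17 with that higher floor and -0.15 with plain probe sets (names ending in _at alone). Mcm10, which joins the helicase at origins, read 772.9 and 381.9, 2.02-fold lower, while a dim set read 26.2 and 28.2 and another was above the floor only in the control. Rfc1, the large subunit of the clamp loader, read 96.5 and 52.3 with 1 of 3 sets in the opposite direction. Rpa3, a subunit of the protein that coats single-stranded DNA, read 87.0 and 47.7, and Gins1, a subunit of the active helicase, read 36.4 and 20.4. In these 4 genes the brightest set was lower by 1.78-fold to 2.02-fold.

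Of 42 other mitosis genes on the arrays, 18 were below the floor on both (42.9%) and 13 above it on both (31.0%). Among all named genes these shares were 32.7% and 56.3%. The median log2 ratio was -0.044 over the 24 mitosis genes that were measured. Of these, 5 were 1.5-fold or more higher (20.8%) and 4 lower (16.7%), against 8.86% and 9.19% of all measured genes. Spc25, a kinetochore subunit, read 71.1 and 34, 2.09-fold lower. Cks1b, a small partner of the cyclin-dependent kinases, read 334 and 210.3, 1.59-fold lower on the brighter and 1.51-fold lower on the other of its sets. Ccnf (cyclin F) read 131.1 and 225.7, 1.72-fold higher, and the kinesin gene Kif22 read 23.9 and 46.3. Over the 13 read on both arrays the median was -0.15, with 8 below 0 and 5 above, and 2 past 1.5-fold in each direction (15.4% each). Of all genes read on both arrays, 7.51% were higher and 8.42% lower. Over the alternatives the median of the mitosis list ran from -0.17 to 0.016.

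Of 32 measured G0-G1 regulators, 3 were 1.5-fold or more higher (9.4%) and 5 lower (15.6%), around a median of 0.046. Among all measured genes 8.86% were higher and 9.19% lower. Cdkn1a (p21), an inhibitor of cyclin-dependent kinases, read 223.3 and 970.2, 4.34-fold higher, and 3.1 and 109.4 on its other set, at least 6.15-fold higher. The phosphatase gene Cdc25a, which removes the block on Cdk2, read 40.4 and 69.3, with its other sets in the same direction. Cdkn2d (p19), an inhibitor of Cdk4, read 37.5 and 21.8. Cdk6, the relative of Cdk4, read 192.8 and 114.6 (-0.75) and on a further set 150.4 and 125.9 (-0.26), while a dim set read 6.7 and 20.3, higher, with the control below the floor. Hepatocyte mitogens and their receptors had a median of 0.055 over 10 genes, and 8 of the 10 lay within 1.5-fold. Of all measured genes, 18.1% differed by 1.5-fold or more in either direction. The growth inhibitor gene Tgfb1 read 58.3 and 36.4 with its other set in the opposite direction. Hbegf, a ligand of the EGF receptor named after its value was seen, read 17.8, which counts as below the floor, and 47.1, while its other set was above the floor only in the control.

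**Figure D5:**
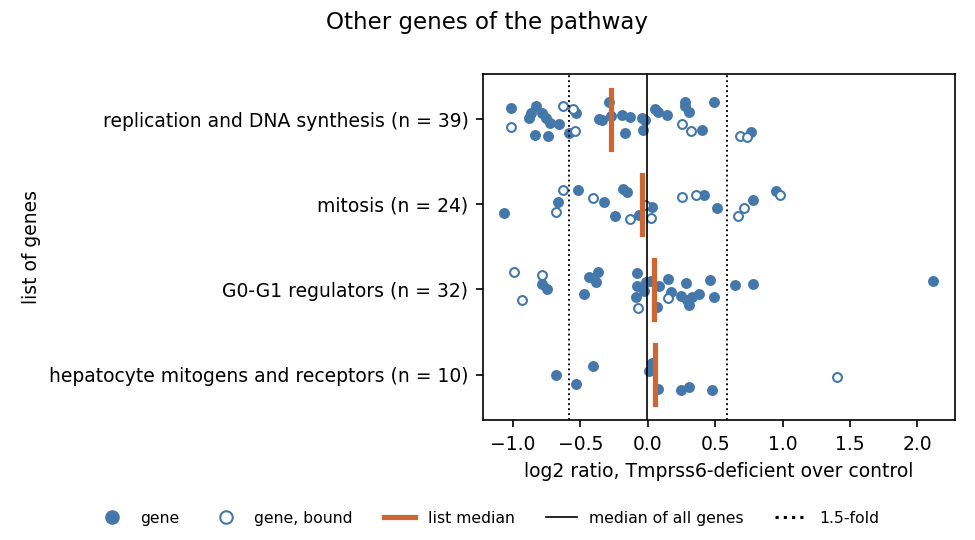
Log2 ratio of Tmprss6-deficient over control signal (x axis) of the measured genes on 4 lists of pathway genes outside the members, 1 point a gene, with bounds as open circles, list medians as orange bars, the median of all measured genes as a black line and 1.5-fold as dotted lines. The replication list is centred at -0.27, and Cdkn1a stands alone at 2.12 among the G0-G1 regulators.

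Cells other than hepatocytes also divide in liver, and in whole tissue fewer cells of a type and less RNA per cell cannot be told apart. The part of these cells in the values above was not tested. Markers of Kupffer cells and macrophages gave a signal on both arrays for 10 of 10 genes, with signals from 48.6 to 1174 in the control and from 33.6 to 883 in the Tmprss6-deficient liver and a sum of 4035 and 2872.5. Their median log2 ratio was -0.47, with 3 lower (Clec4f, Vsig4 and C1qb) and 1 higher (Marco) by 1.5-fold or more. Medians were also below 0 for markers of neutrophils (-0.33), bile duct cells (-0.45, bounds only) and hepatocytes (-0.075). They were above 0 for endothelial (0.14), stellate cell and fibroblast (0.067), B cell (0.024), erythroid (0.071) and T cell (0.64, 1 bound) markers. Whether any of these bears on the replication list was not tested. Endothelial markers summed to 1390 and 1367 over 9 genes, with 3 higher (Lyve1, Egfl7 and Oit3) and 2 lower (Kdr and Clec4g). Stellate cell and fibroblast markers summed to 2716.5 and 2694 over 9 genes, and only Acta2 was past 1.5-fold (514.2 and 89.2).

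The markers of T cells were near background. Of 6 T cell markers, Cd3e, Cd3g, Cd3d, Cd4 and Cd2 gave no signal above the floor, and Cd8a read 11.2 and 27.7. Of 5 B cell markers, Cd79a and Cd79b were above it on both arrays at 18.5 and 24.5, and at 18 and 18.3, and 1, Blnk, was past 1.5-fold (33.9 and 15.7). Erythroid markers summed to 832 and 487 over 7 genes, most of it Alas2. Alas2 (593.1 and 232) and Klf1 (57.5 and 11.5) were lower by 1.5-fold or more, while Hbb-b2 (53.7 and 77.5), Tspan33 (116.7 and 126.6) and Slc4a1 (7.2 and 18.7) were higher by less than that, Epb42 and Ermap were below the floor, and the list median was 0.071. Neutrophil markers summed to 209 and 197 over 9 genes, with Ngp and Csf3r higher and Elane lower by 1.5-fold or more, and Camp, Mmp8 and Mpo below the floor. Markers of bile duct cells summed to 133 and 45.7 over 5 genes, with none above the floor on the Tmprss6-deficient array, and of these Krt19 (49.2 and 15.1) and Cldn7 (29.1 and 1.1) were lower by 1.5-fold or more and Sox9 was below the floor on both.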

How the data were processed

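Liver RNA was copied, labelled with biotin and hybridised to Affymetrix whole-genome mouse arrays, 1 for each animal, per the labels' protocols. Per the submitters' processing notes MAS5 made the deposited intensity signals, with no version or setting given in the sources used here. The mean signal without the lowest and highest 2% of probe sets was 100.0 on both arrays, so scaling to it changed little.

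The annotation gave 1 gene symbol to 34958 of 45101 probe sets and several to 932, which were not used, and 9211 are unnamed here. Signals below the floor of 17.8 were raised to it, and a gene is its set with the highest mean log2 signal after that. For 164 of 12247 measured genes, among members only Ccne1, the unraised signals give another set. After scaling, 73 control values deposited as 17.8 lay under the floor by less than rounding and count as below it. A gene above it on 1 array got a bound, and one below it on both got none. The spread between probe sets is the SD of the difference of the 2 brightest sets of a gene above the floor on both arrays, divided by the square root of 2 (4367 genes). Gene identifiers of the 36 members matched RefSeq symbols. Python 3.11.15, numpy 2.4.6, pandas 2.3.3 and statsmodels 0.14.6 were used. The steps were tested on simulated data with changes planted in bright genes only, so the test does not cover the floor or the bounds of dim genes. No test across animals was possible. The members and lists were chosen with earlier results of these data known. Named genes are all members, up to 4 genes of each pathway list with the largest ratios of 1.5-fold or more above the floor on both arrays, and the markers past 1.5-fold or below the floor on both arrays. Alb, Slc4a1, Hbb-b2, Tspan33, Cd79a, Cd79b, Espl1, Hbegf and the neighbours of Pttg1 were named outside this rule, with their values known.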

Additional observations from a re-analysis of the deposited data

How the results depend on the processing

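The values rest on 2 arrays, and most G2-M genes lie near background, so their counts follow the floor. No paired analysis was possible because each group holds 1 array, and for the same reason no array could be left out. Tmprss6 and Pttg1 kept their direction under every alternative tried, with log2 ratios from -4.46 to -4.15 for Tmprss6 and from 0.48 (plain probe sets only, a bound) to 3.27 for Pttg1. Quantile normalization, loess, scaling to the median and leaving out the scaling moved the results on members by less than the probe set spread divided by the square root of the number of genes. With the floor at the 30th percentile, 3 members were near background, 13 were past 1.5-fold, the median was 0.015 over all members and -0.13 over G2-M genes, and the class difference was 0.32. Of the 33 members measured there, 8 were higher (24.2%) and 5 lower (15.2%), against 15.9% and 15.7% of 15764 genes. A floor at the 70th percentile left 3 of 15 measured members past 1.5-fold, all higher. Of 8283 genes, 5.34% were then higher and 6.27% lower. The median for G2-M was then 3.19, from Pttg1 alone, and the difference -3.02. Over genes read on both arrays they were 3.19 and -3.0. With the floor as a pseudocount the G2-M median was 0.47 and the difference -0.28. With plain probe sets only, the medians were 0.043 over G1-S genes and 0.043 over all members, the difference was -0.17 and 3 of 18 measured members were past 1.5-fold. These 3 were higher (16.7%), against 9.18% higher and 9.28% lower among all measured genes. The G1-S median was 0.071 with the mean of all measured sets, -0.067 without the D cyclins, Cdk4 and E2f5 (difference -0.21), and 0.071 without Ccne1 and E2f5, a choice added after seeing the data. At 2-fold, 3 of 22 measured members counted, all higher, against 291 higher and 340 lower of 12247 genes. Ccne1 turned to -0.26 with the lower floor, with plain probe sets only, with its second brightest set and with sets ranked before the floor was set, since each of these takes its other probe set. The last also put the G1-S median at 0.071.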

Other observations

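A probe set shared by Tyms and its pseudogene Tyms-ps, and so outside the rule for members, read 33.0 in the control and 21.3 in the Tmprss6-deficient liver, above the floor on both arrays while every set of Tyms alone was below it. Which of the 2 it reads cannot be told apart.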
